A study of Sus scrofa with 12 samples.

Results

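Homeobox, SOX, FOX, GATA and KLF transcription factors were examined in the oxyntic mucosa, where the stomach makes its acid, of piglets 2 weeks old. Members were taken by name alone: a gene belonged when its feature on the array carried 1 symbol and that symbol started with HOX, with SOX, GATA or CDX and a digit, with FOX, a letter and a digit, with KLF or ONECUT, or was PDX1. The rule found 80 of the 10880 genes with a single symbol, of which 24 were HOX, 26 FOX, 13 SOX, 8 KLF, 4 GATA, 2 CDX and 2 ONECUT genes, together with PDX1. The brightest feature stood for each gene, and 12 of the 80 had more than 1 feature. A further 3 features carried several symbols (FOXA2 with HPS1, KLF4 with KLF2, and HOXA10 listed under a pair of gene identifiers), so no level is given for these genes. GATA4, FOXF1, SOX18, KLF15 and ONECUT2 were not analysed here.

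All 12 piglets, of a (Great York x Pietrain) x 'Dalland' cross, were delivered by cesarean section and fed artificially. On days 1 to 3 of age every piglet was given a starter microbiota of Lactobacillus amylovorus, Clostridium glycolicum and Parabacteroides spp. On days 3 to 4, 6 piglets also received sow feces in diluted form (complex association, CA) and the other 6 a placebo (simple association, SA). The labels house the treatments in separate rooms, and under that housing room and treatment cannot be told apart. The methods put 3 piglets per group in each pen or room, which leaves the rooms of the groups unclear. The 6 SA piglets are thus no germ-free controls, since they carry the starter bacteria too. The labels name pasteurized sow colostrum at birth, whereas the methods give sow serum for this trial. Every piglet gave 1 Affymetrix gene array for the pig, whose deposited intensities, processed by the authors with Robust Multichip Analysis, were converted to log2.

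Transcription factors of these families bind short DNA motifs and set which genes a cell can use. HOX genes lie in 4 clusters, and along the gut their order in the cluster follows the body axis, so that the low paralog groups mark the foregut and the high ones the hindgut. In the mouse stomach, SOX2 and GATA4 mark gastric endoderm, PDX1 the antrum and duodenum, and CDX1 and CDX2 the intestine, whose factors are kept off in gastric epithelium. FOXA and GATA factors open chromatin in endoderm, FOXF factors act in the mesenchyme beneath it, and KLF4 and KLF5 control renewal and differentiation of gut epithelium.

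Median intensities of the arrays ran from 55.6 to 57.6, with group medians of 57.2 in CA and 56.2 in SA. With limma's array weights, CA piglet 4 had the lowest, 0.267. The defining genes of the labelled tissue were present: 8 of 9 measured parietal cell genes, 2 of 3 chief cell genes and 5 of 5 mucous cell genes were above background, as were 6 of 6 fibroblast and 4 of 5 smooth muscle genes. Of 4 measured genes of squamous epithelium of the upper stomach, 3 were above background on all arrays and KRT5 on none. Of 7 measured genes of antrum and duodenum, 3 were above background on all arrays, all from among GAST, VIL1, MUC2 and LCT. PDX1, CDX2, FABP2 and SI were not above background on any array, and PDX1 and CDX2 are themselves members here. Features of different genes respond differently to RNA, so levels of different genes are not ranked.

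A background limit was set on each array as the 95th percentile of 86 measured genes of retina, lens, testis, ovary, pituitary and other organs, and it ran from 5.37 to 5.74 on the log2 scale. Against this limit, 33 of the 80 factors (41.2%) were above background on all 12 arrays, 31 (38.8%) were not above it on any array, and 16 lay between. Over all genes tested, 55.6% were above the limit on all arrays and 34.1% on none. The levels describe which factors gave a signal in bulk mucosa, where few cells of a type and little RNA per cell cannot be told apart. With the 99th percentile as the limit, 20 factors were above it on all arrays.

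**Figure D1:**
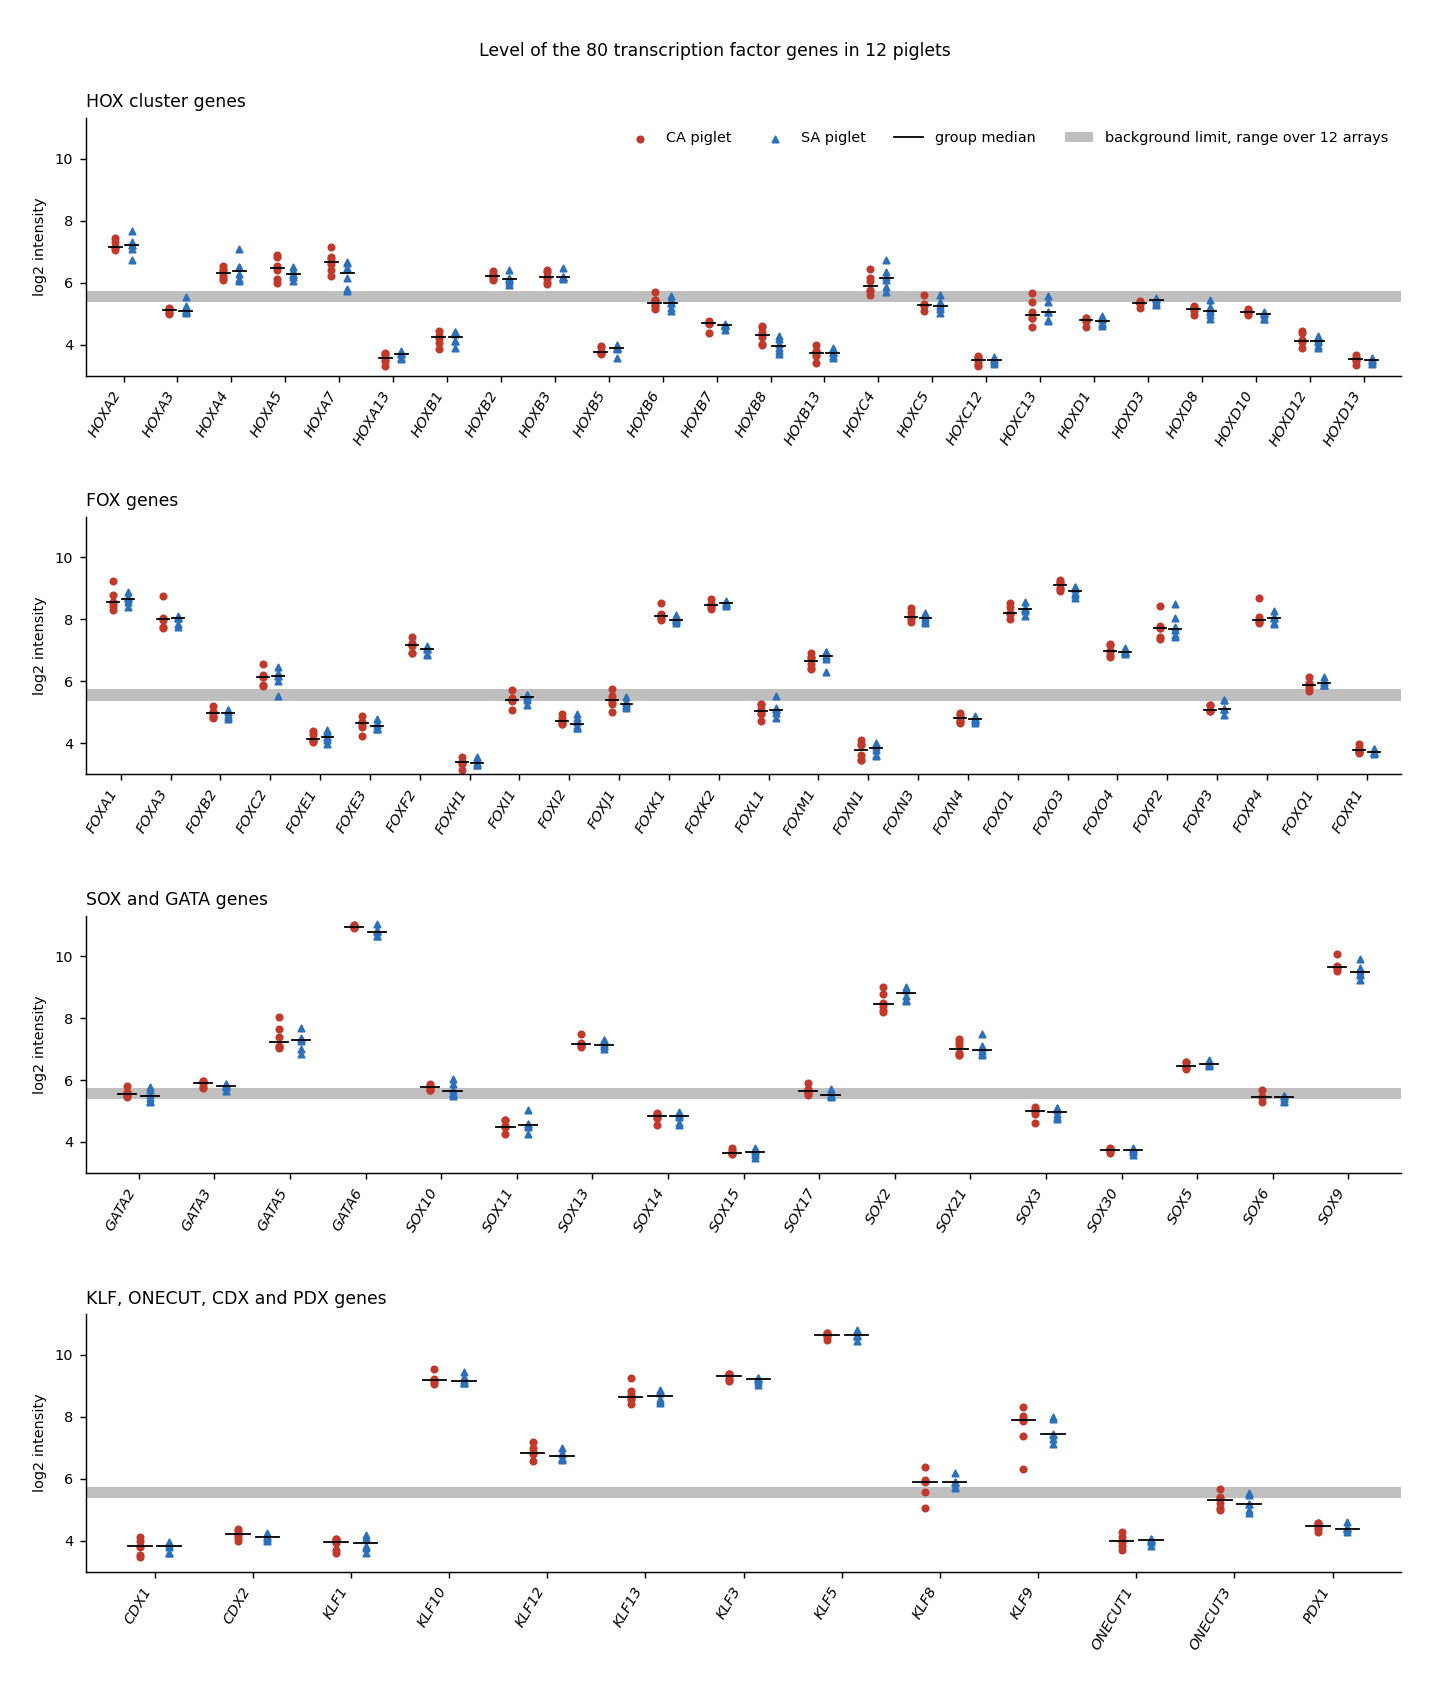
Log2 intensity of each of the 80 genes in every piglet, by family, with CA piglets as red circles, SA piglets as blue triangles and a black bar at each group median. The grey band is the range of the background limit over the 12 arrays, 5.37 to 5.74, and most genes sit clearly on one side of it while CA and SA points overlap for every gene.

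The gastric endoderm factors were well above the limit. GATA6, which acts with GATA4 in endoderm and parietal cells, ran from 10.65 to 11.02 over the 12 piglets. GATA5, also of endoderm, ran from 6.85 to 8.05, and GATA3, a factor of T cells and some epithelia, from 5.65 to 5.96, above the limit on all arrays by 0.30 on average. GATA2, of mast cells and endothelium, was the 1 GATA gene near the limit, above it on 7 of 12 arrays. SOX2, which specifies foregut endoderm, lay between 8.20 and 9.01, its close relative SOX21 between 6.79 and 7.49, and SOX9, of epithelial progenitors, between 9.23 and 10.05. FOXA1 and FOXA3, pioneer factors of endoderm, lay between 8.31 and 9.25 and between 7.71 and 8.76.

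The intestinal and antral factors were not above the limit on any array. CDX1, which with CDX2 drives intestinal identity, ran from 3.49 to 4.11, and CDX2 from 3.99 to 4.37. PDX1, of antrum, duodenum and pancreas, ran from 4.27 to 4.60 on the brighter of its 2 features. The dimmer features of CDX2 and PDX1 were not above the limit on any array either. ONECUT1, known from liver and pancreas, ran from 3.70 to 4.28, while ONECUT3 was above the limit on 2 arrays. KLF1, the erythroid factor of the family, ran from 3.59 to 4.18, and FOXP3, the factor of regulatory T cells, from 4.91 to 5.41, both without an array above the limit.

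Among HOX genes, those above background came from the low and middle paralog groups. Of 17 genes of groups 1 to 8, 6 were above the limit on all arrays (35.3%), 5 on some and 6 on none (35.3%). Of only 7 genes of groups 10 to 13, 0 were above on all arrays, 1 was above on some and 6 on none (85.7%). Over all genes tested, 55.6% were above on all arrays and 34.1% on none. Genes of groups 1 to 8 were thus above the limit on all arrays less often than genes at large. The 6 genes were HOXA2, HOXA4, HOXA5, HOXA7, HOXB2 and HOXB3, so 4 of 6 HOXA and 2 of 8 HOXB genes, but 0 of 4 HOXC and 0 of 6 HOXD genes. HOXA2 lay 1.67 above the limit on average, but the rest of the 6 only 0.64 (HOXB2) to 0.91 (HOXA7). HOXC4 was above on 10 arrays and ran from 5.60 to 6.72, on average 0.52 above the limit. Which HOX genes stay above the higher limit, which left 20 factors, is not given here. The pattern over clusters and paralog groups therefore holds for the limit used here and may depend on it. HOXA3, between HOXA2 and HOXA4 in the cluster, was above on 1 array (4.98 to 5.54), and HOXB5 on 0 (3.57 to 3.98). Each was read from 1 feature, and features of different genes respond differently, so this does not show that neighbours differ. HOXB13, a factor of the hindgut and prostate, ran from 3.42 to 3.99. HOXC13 was above on 1 array on its brighter feature, whose correlation with its other feature was weak (r = 0.23 over 12 arrays, a description only).

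**Figure D2:**
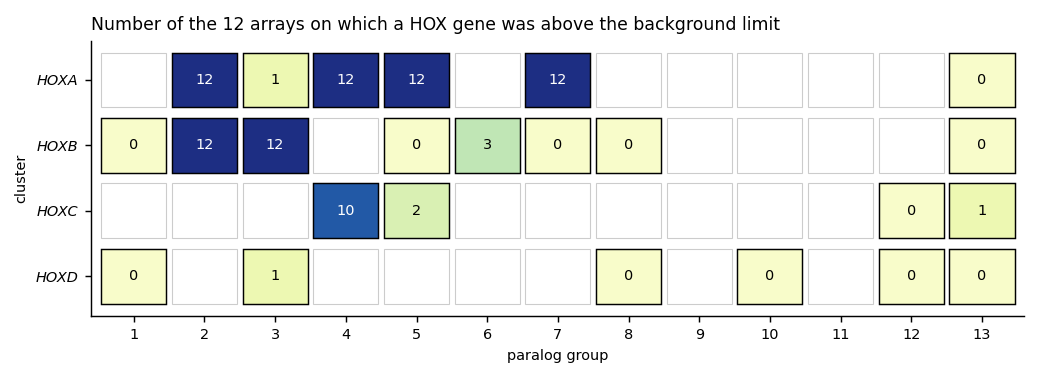
Each filled box is a measured HOX gene at its cluster (rows) and paralog group (columns), and the number and colour give on how many of the 12 arrays it was above the background limit. Empty boxes were not analysed or have no gene, and the 6 boxes at 12 lie in groups 2 to 7 of the HOXA and HOXB clusters.

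Of the FOX family, 13 of 26 genes were above background on all arrays. They included FOXO1, FOXO3 and FOXO4, which respond to insulin signaling, FOXK1, FOXK2 and FOXN3, which many tissues use, and FOXM1, which drives genes of mitosis and ran from 6.32 to 6.95. FOXF2, of gut mesenchyme, ran from 6.83 to 7.44, and FOXQ1, which in the mouse is needed for the mucin of surface cells, from 5.67 to 6.14. FOXP2 and FOXP4 were above the limit as well, with FOXP2 from 7.37 to 8.49. The 9 genes with no array above the limit held FOXN1, of the thymus, and FOXE3, of the lens. FOXO1 ran differently on its features, which were both above the limit: the group difference was -0.07 on the brighter and 0.20 on the other (r = 0.52 between them). FOXI1, of acid-secreting cells of kidney and inner ear, was above on 4 arrays.

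Of 8 KLF genes, 6 were above background on all arrays. KLF5, of proliferating gut epithelium, had a narrow range, 10.43 to 10.79, whereas KLF9, a factor induced by glucocorticoids and thyroid hormone, had the widest of all members above background, 6.32 to 8.32 (SD 0.54, n = 12). KLF9 was at 6.32 in CA piglet 5 and ran from 7.10 to 8.32 in the other piglets. KLF3, KLF10, KLF12 and KLF13 were the other 4. The next widest SDs among members above background were 0.42 for HOXA7, 0.37 for FOXP2, 0.35 for GATA5 and 0.29 for HOXA5. SOX5 and SOX13 completed the 5 of 13 SOX genes above background, and the 2 features of SOX5 did not vary together (r = -0.13 over 12 arrays). Over the 33 genes the median SD was 0.17, beside 0.16 over all genes tested.

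The members nearest to the limit by mean distance were HOXD3, FOXI1 and SOX6 below it (-0.17, -0.10 and -0.10) and GATA2, SOX17 and SOX10 above it (0.0011, 0.07 and 0.19). SOX17, of endothelium, was above on 8 arrays and SOX10, of enteric glia, on 10. GATA2, at a mean within 0.0011 of the limit, cannot be placed on either side.

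The comparison of CA with SA piglets asks whether exposure to a sow's fecal microbiota goes with other levels of these factors 2 weeks after birth. From limma with Benjamini-Hochberg adjustment over the 10880 genes, 0 of the 80 members passed an adjusted p of 0.05, and 0 genes (0%) passed over the whole table (lowest adjusted p = 0.999). At an unadjusted p under 0.05 there were 4 members, or 5% of the 80, beside 3.28% of all genes. All 4 (HOXB8, GATA6, FOXO3 and HOXA7) had higher means in CA, a direction in which 2.06% of all genes lay at that level, and 0 members were lower, against 1.22% of all genes. Of the 80 members 49 (61.2%) had a higher mean in CA, beside 52.6% of all genes, with a median log2 difference of 0.02 beside 0.01. After median centring of the arrays 44 members had a higher mean in CA and their median was 0.0050, beside -0.0122 for all genes. After quantile normalization again they were 45 and 0.0057, beside a median of -0.0031 for all genes. Within the 33 factors above background, 21 were higher in CA. For 0 of the members were the values of the groups separate, as for 0.129% of all genes. Whether these shares differ from those of all genes was not tested, and the share at an unadjusted p under 0.05 rested on 4 members. The members higher at an unadjusted p under 0.05 numbered 0 without SA piglet 7, 1 without CA piglet 1 or SA piglet 10, 2 without CA piglet 2, 4 or 6, and 5 without SA piglet 9. The share with a higher mean also depended on single piglets: without CA piglet 4, 36 of 80 members had a higher mean in CA and the median was -0.0020, and without CA piglet 1 they were 56 and 0.04. The median of all genes was -0.0013 without CA piglet 4 and 0.0115 without CA piglet 1.

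**Figure D3:**
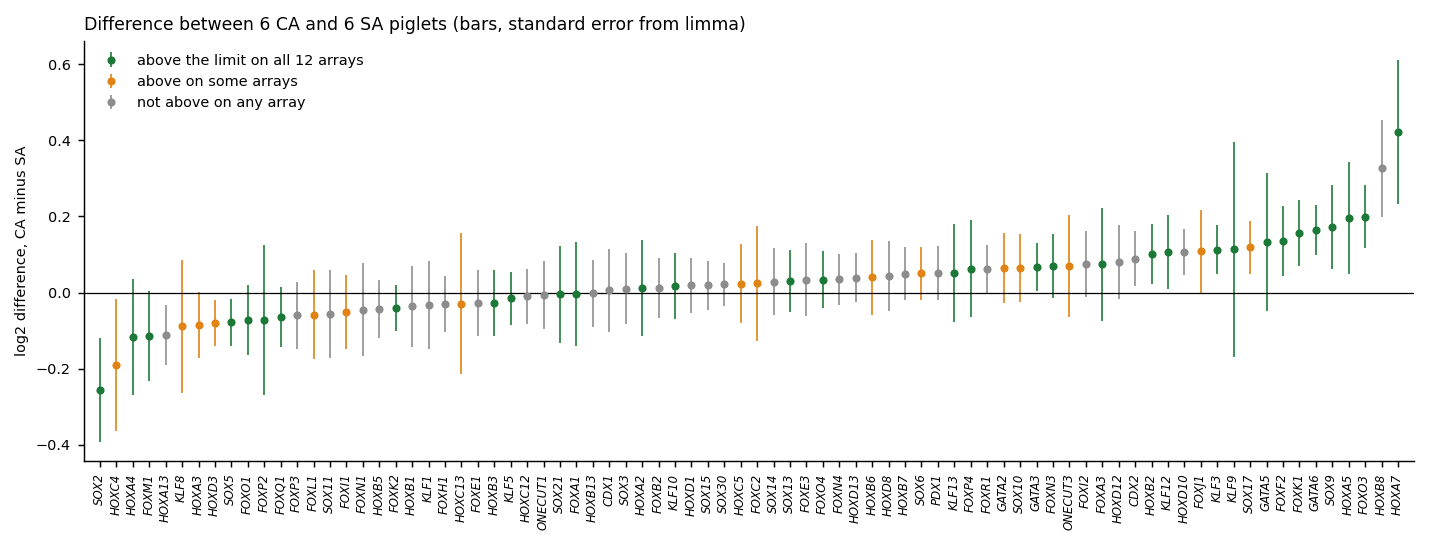
Log2 difference between the means of 6 CA and 6 SA piglets for each of the 80 genes in order of size, with bars for the standard error from limma. Green, orange and grey mark genes above the background limit on all 12, some or no arrays, and the values run from -0.26 (SOX2) to 0.42 (HOXA7) around a median of 0.02.

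The 10 members with the smallest unadjusted p are given in full. GATA6 had a lowest, median and highest level of 10.89, 10.95 and 11.01 in the CA piglets and of 10.65, 10.78 and 11.02 in the SA piglets. The 6 CA piglets lay close together and above 5 of the SA piglets, while SA piglet 9 lay above them all. The log2 difference was 0.16 with a standard error of 0.07 (exact permutation p = 0.0195, two-sided as are all tests here, and adjusted p = 0.999 from limma), and 0.21 without SA piglet 9. Beside it, the parietal cell list, of which all 9 measured genes had higher means in CA, 6 of them at an unadjusted p under 0.05 in limma, had a median of 0.26 in CA (-0.27 to 0.49) and of -0.29 in SA piglets (-0.55 to 0.45), a difference of means of 0.42, with SA piglet 9 highest of its group as well. The part of parietal cells in the level of GATA6 was not tested between groups.

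FOXO3, a stress-responsive factor restrained by insulin, ran from 8.91 over a median of 9.09 to 9.27 in CA and from 8.69 over 8.91 to 9.03 in SA piglets. Of the CA piglets 3 lay above the highest SA piglet and all 6 above the SA median. The log2 difference was 0.20 (standard error 0.08, exact permutation p = 0.0411, adjusted p = 0.999 from limma).

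HOXA7, a middle HOX gene, had a lowest, median and highest level of 6.23, 6.67 and 7.14 in CA and of 5.72, 6.31 and 6.67 in SA piglets. SA piglets 7 and 10 were the low ones, at 5.72 and 5.80. The log2 difference was 0.42 (standard error 0.19, exact permutation p = 0.0801, adjusted p = 0.999 from limma). HOXB8 had levels of 3.98, 4.32 and 4.59 in CA and of 3.71, 3.96 and 4.26 in SA piglets, a difference of 0.33 (standard error 0.13, exact permutation p = 0.0476, adjusted p = 0.999 from limma), although it was under the background limit on all 12 arrays.

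SOX2 was the member with the lowest difference, -0.26 (standard error 0.14, exact permutation p = 0.121, adjusted p = 0.999 from limma). It ran from 8.20 over 8.44 to 9.01 in CA and from 8.55 over 8.80 to 9.00 in SA piglets. Of the CA piglets 5 lay below the SA median, and CA piglet 4 lay above all others at 9.01. Without that piglet the difference was -0.35. The list of squamous epithelium, where SOX2 is also used, covered like ranges, -0.17 to 0.21 in CA and -0.22 to 0.14 in SA piglets. Of its 4 measured genes, 3 were above background on all arrays and KRT5 on none.

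The other 5 were FOXK1, HOXD10, KLF3, SOX17 and SOX9, with log2 differences of 0.16, 0.11, 0.11, 0.12 and 0.17, standard errors of 0.06 to 0.11, and exact permutation p between 0.058 and 0.193. For FOXK1, SOX17 and SOX9 the highest CA value was that of CA piglet 4, and without it the differences were 0.08, 0.07 and 0.10. Beside SOX17, all 5 measured endothelial genes had higher means in CA, with a difference of 0.15 for the list (-0.08 to 0.29 in CA and -0.18 to 0.01 in SA piglets), whose part was not tested. KLF3 reached 9.37 or more in 3 CA piglets and at most 9.25 in SA piglets, with overlap below. HOXD10 was under the background limit on all arrays. None of the 10 differences passed the adjusted test.

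**Figure D4:**
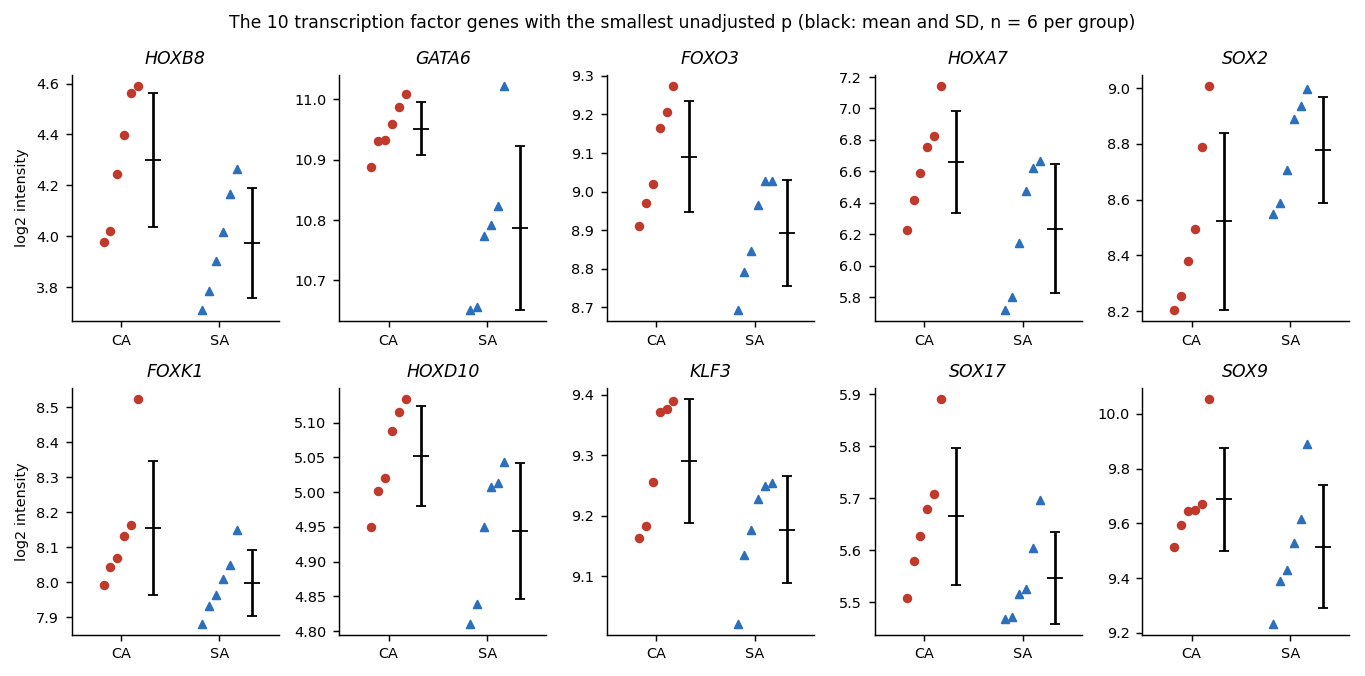
Log2 intensity of the 10 members with the smallest unadjusted p, with 1 point per piglet (spread sideways by rank for sight), CA in red and SA in blue, and the mean and SD of each group (n = 6) in black. Every pair of groups overlaps, the CA values of GATA6 are the tightest, and a single high CA point (CA piglet 4) stands out for FOXK1, SOX17 and SOX9.

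For stomach factors outside these 10, group differences were small beside their standard errors or little larger than them. FOXA1 and FOXA3 had log2 differences of -0.0038 and 0.07, with standard errors of 0.14 and 0.15, GATA5 one of 0.13 (standard error 0.18), and KLF5 one of -0.02 (standard error 0.07). KLF9, the most variable of them, was at 0.11 with a standard error of 0.28. HOXA5, a mesenchymal gene of the foregut, was at 0.20 (standard error 0.15), FOXF2 at 0.14 (standard error 0.09), and FOXM1 at -0.11 (standard error 0.12). Without CA piglet 4 the differences of FOXA1, FOXA3 and GATA5 were -0.12, -0.07 and -0.00034. HOXA5 was at 0.11 without CA piglet 1, FOXF2 at 0.07 without CA piglet 4, and FOXM1 at -0.20 without SA piglet 9 and -0.06 without CA piglet 6. None passed a test, and these values do not show that the levels were equal.

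Factors known from 1 cell type were set against the marker genes of that type over the 12 piglets, in 13 pairs whose p-values were adjusted together. The share of all genes that follow these lists as closely is not given here, so a relation cannot be called particular to its factor. FOXM1 followed 7 genes of mitosis closely (Pearson r = 0.90, permutation p = 5.0e-05, adjusted p = 0.00065; Spearman rho = 0.92, p = 1e-04, adjusted p = 0.0013). Without the 2 piglets farthest from the median of the list r was 0.88, and on deviations from the group means it was 0.90. SA piglet 9 was lowest for both the list and FOXM1 (6.32), and CA piglet 3 was the CA piglet highest for both (6.93).

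GATA6 followed 9 genes of parietal cells (r = 0.81, permutation p = 0.0016, adjusted p = 0.0071; rho = 0.80, p = 0.0024, adjusted p = 0.016). Without the 2 farthest piglets r was 0.81, and on deviations from the group means it was 0.69 (adjusted p = 0.055). The list holds ATP4A and ATP4B, the proton pump genes, which GATA factors are known to bind in parietal cells. Whether such binding or the share of parietal cells in a sample has a part in this relation was not tested.

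SOX17 followed 5 genes of endothelium (r = 0.83, permutation p = 0.00065, adjusted p = 0.0042; rho = 0.65, p = 0.026, adjusted p = 0.084). This relation rested on the 2 farthest piglets, among them CA piglet 4, the highest for both, and without them r was 0.56 (adjusted p = 0.25). On deviations from the group means r was 0.77 (adjusted p = 0.015). SOX10 followed 6 genes of enteric glia (r = 0.73, permutation p = 0.0068, adjusted p = 0.022; rho = 0.73, p = 0.0086, adjusted p = 0.037), and it too rested on the 2 farthest piglets (r = 0.47 without them, adjusted p = 0.32), among them SA piglet 11, the highest for both. On deviations from the group means it was 0.84 (adjusted p = 0.0023). Of the 6 glia genes, GFAP and FABP7 were not above background on any array. KLF5 followed 4 genes of squamous epithelium (r = 0.67, permutation p = 0.017, adjusted p = 0.043; rho = 0.57, p = 0.056, adjusted p = 0.14), and r was 0.67 without the 2 farthest piglets (adjusted p = 0.11) and 0.68 on deviations from the group means (adjusted p = 0.047). Only these 4 of 10 listed squamous genes were measured, of which 3 were above background on all arrays and KRT5 on none.

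The other 8 pairs did not pass. FOXA1 with 5 mucous cell genes had r = 0.53 (rho = 0.52, permutation p = 0.071 and 0.083, adjusted p = 0.15 and 0.17), and SOX2 with the squamous list had r = 0.32 (rho = 0.31, permutation p = 0.31 and 0.33, adjusted p = 0.50 and 0.48). PDX1, FOXP3 and KLF1, which were under the background limit, had r of 0.26, 0.39 and 0.11 with their lists and rho of 0.22, 0.51 and -0.13 (permutation p from 0.093 to 0.73, adjusted p from 0.17 to 0.74). FOXF2, GATA3 and GATA2 had r of -0.17, 0.24 and 0.13 and rho of 0.09, 0.38 and 0.17 (permutation p from 0.22 to 0.78, adjusted p from 0.36 to 0.78). Piglets share their arrays between both measures of a pair, and how many cells of a type a sample held was not measured.

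**Figure D5:**
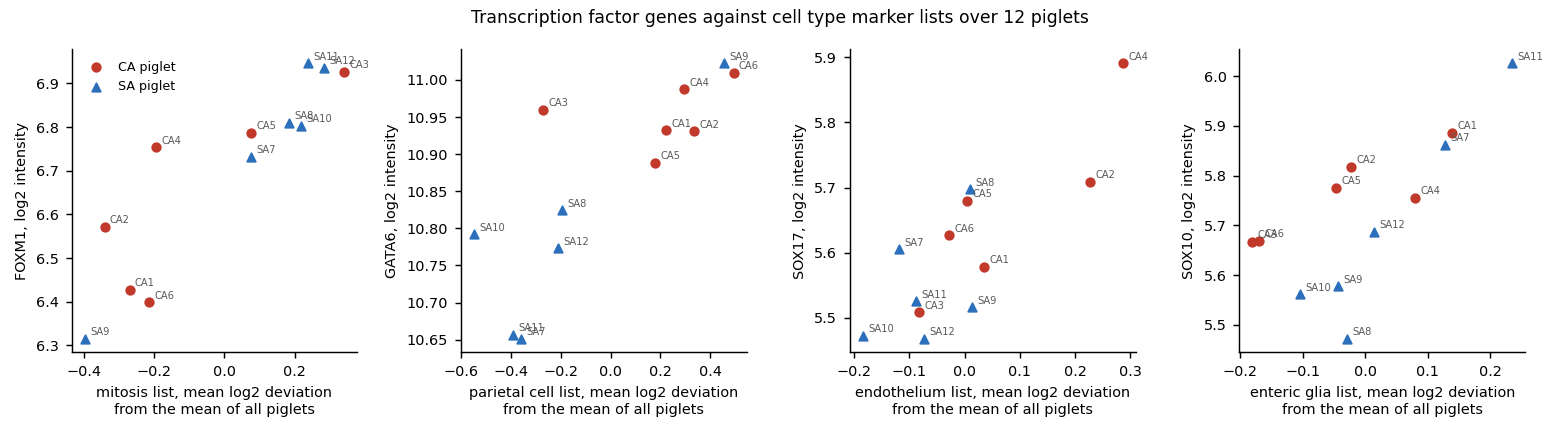
Log2 intensity of FOXM1, GATA6, SOX17 and SOX10 (vertical axes) against the mean log2 deviation of the mitosis, parietal cell, endothelium and enteric glia lists (horizontal axes), with 1 labelled point per piglet, CA in red and SA in blue. FOXM1 rises along the whole range of its list (r = 0.90), while the points at the upper right of the SOX17 and SOX10 panels are CA piglet 4 and SA piglet 11.

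Other factors of gastric patterning and the partners of HOX and GATA proteins were read from fixed lists. Of 40 listed patterning factors 20 were measured, 7 of them above background on all arrays and 8 on none. None of the 20 had an unadjusted p under 0.05, 13 had a higher mean in CA, and the median log2 difference was 0.02. The smallest p-values belonged to PROX1, of lymphatic vessels and some endocrine cells, at a difference of 0.18 (standard error 0.10), ESRRB, an orphan receptor, at 0.30 (0.18), INSM1, of endocrine cells, at 0.22 (0.16), and NKX6-3, of antral endocrine cells in the mouse, at 0.17 (0.13), with exact permutation p of 0.0866, 0.160, 0.242 and 0.260. Of these, ESRRB was above background on 6 arrays, PROX1 and INSM1 on 1 each and NKX6-3 on 0. Of 11 cofactors, 6 were measured, 5 were above background on all arrays, and 3 had a higher and 3 a lower mean in CA, 0 of them at an unadjusted p under 0.05.

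All members were also set against the smooth muscle marker list, a comparison chosen after the data were seen and adjusted over 10875 genes. HOXA4 (r = 0.85 over 12 piglets, rho = 0.76, permutation p = 0.00034 and 0.0058, adjusted p = 0.031 and 0.18) and HOXC4 (r = 0.86, rho = 0.85, permutation p = 0.00018 and 0.00082, adjusted p = 0.021 and 0.080) were the 2 of 80 members that passed with Pearson's r, while 1.56% of all genes passed in that direction and 1.71% in either. FOXP2, known from brain and lung, had r = 0.82 (rho = 0.70, permutation p = 0.00091 and 0.014, adjusted p = 0.051 and 0.26). Without the 2 farthest piglets, SA piglets 9 and 11, r was 0.63 for HOXA4, 0.78 for HOXC4 and 0.73 for FOXP2, and 0 genes of the table passed.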

How the data were processed

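Oxyntic mucosa of 6 CA and 6 SA piglets was analysed, with 1 array per piglet and groups taken from the sample labels. The authors ran Robust Multichip Analysis with Expression Console software (version not given in the sources used here). That method corrects background and normalizes by quantiles, steps taken here from its name and not from the values. The deposited intensity values are on a linear scale, which the values themselves show. The number of sample columns not used is 0. Intensities were converted to log2, and features were named through the platform annotation: 11939 carried 1 symbol, 416 several and 15203 none here, with 2 renamed from an older symbol. The genome build and gene positions are not given in the sources used here, so no coordinates or sequences are printed.

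Differences were tested with lmFit and eBayes of limma 3.58.1 (R 4.3.3), without covariates because no label ties a piglet to its litter, sex, pen or array strip, and adjusted over 10880 genes; the script was tested on simulated data. Exact permutation tests ran over 924 splits (smallest possible p 0.00216) and correlations had 100000 permutations, using scipy 1.17.1, pandas 2.3.3 and numpy 2.4.6 under Python 3.11.15; figures used matplotlib 3.10.9. Of 131 reference genes of other organs 86 were measured, and 4 of them lie above the limit on all arrays. Genes were named as follows: the 10 smallest p, the measured 24 of 32 anchors, the 5 largest SDs, the 3 members next to the limit on each side, and the 4 patterning factors of smallest p. The members and lists were chosen with earlier results of these data known. Alternatives were the mean of all features, a filter on dim features, other normalizations, moderation with trend, array weights, an offset of 16 before log2, other background limits, and leaving out each piglet. The number of arrays limits the precision.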

Additional observations from a re-analysis of the deposited data

Results flagged for a closer look

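Within groups of 6 piglets, 6 of 68 tested sets of values had 1 piglet far from the other 5, where chance gives about 1 in 20. The share over all genes is not given here, so the count cannot be read as a trait of these factors. CA piglet 4 was the far one for SOX9 (10.1, others 9.51 to 9.67), FOXA3 (8.76, others 7.71 to 8.05) and FOXK1 (8.52, others 7.99 to 8.16). SA piglet 9 was low for FOXM1 (6.32, others 6.73 to 6.95). Under the background limit, SA piglet 12 was low for HOXB5 (3.57, others 3.84 to 3.98), and SA piglet 8 was high for PDX1 (4.60, others 4.29 to 4.40).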

How the results depend on the processing

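The number of members and of genes at an adjusted p under 0.05 was 0 under every setting run with limma. At an unadjusted p under 0.05, 193 genes were counted when dim features were left out and 697 with array weights, beside 357, and leaving out 1 piglet gave 241 (without SA piglet 12) to 671 (without SA piglet 9). Members higher in CA at that level were 6 with array weights and, with 1 piglet left out, 0 (without SA piglet 7) to 5 (without SA piglet 9), with 1 without CA piglet 1 or SA piglet 10 and 2 without CA piglet 2, 4 or 6. Members lower in CA were 0 to 1, and 1 with array weights. That 1 member was SOX2, seen without CA piglet 4 or 5. Without dim features 36 members were tested and 22 had a higher mean in CA. The differences of the 10 members of smallest p kept their sign under every alternative run, which their choice by p makes likely. Those of HOXA5, FOXF2 and FOXM1 did as well, but those of 6 other stomach factors did not: FOXA3 was at -0.0011 and KLF9 at -0.0433 with array weights, KLF5 at 0.00012 after quantile normalization again and FOXO1 at 0.0640 with the mean of its features. With 1 piglet left out, FOXA1 ran from -0.124 to 0.0633, FOXA3 from -0.0695 to 0.141, GATA5 from -0.00034 to 0.222, KLF5 from -0.0566 to 0.0162 and KLF9 from -0.0217 to 0.378. Members above background were 20 at the 99th percentile in place of 33, and 33 to 34 with 1 piglet left out. Olfactory receptor genes could set no limit, since 0 were measured. Of the 13 fixed relations, 5 passed, as did 5 with the mean of all features, 4 on deviations from the group means, 3 with Spearman and 2 without the 2 farthest piglets. The signs turned for FOXF2 with fibroblast genes (0.0909 with Spearman, 0.19 without the 2 farthest piglets), KLF1 with red blood cell genes (-0.13 and -0.11), PDX1 with antral genes (-0.30 without the 2 farthest piglets, -0.0700 with the mean of all features) and FOXP3 with T cell genes (-0.0211 with the mean of all features), none of which passed; the cause was not tested. Members above background that rose with the smooth muscle list were 1, then 0 with Spearman, 2 without CA piglet 4 and 0 without the 2 farthest piglets. No paired analysis was possible: the groups hold different piglets, and litter, over which the paper balanced them, is not labelled per piglet.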

Other observations

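Over the 3160 pairs of members, also chosen after the data were seen, 2 had an adjusted permutation p under 0.05. HOXA7 and HOXB8 had r = 0.94 and rho = 0.97 (permutation p = 1e-05, the smallest these permutations can give, adjusted p = 0.016 and 0.032), with r = 0.93 without the 2 piglets farthest from the median of HOXA7 and 0.92 on deviations from the group means. These genes lie in different clusters and HOXB8 was under the background limit on every array. GATA5 and FOXP4 had r = 0.91 and rho = 0.93 (permutation p = 1e-05 and 5.0e-05, adjusted p = 0.016 and 0.074), and r was 0.89 without CA piglet 4 and 0.87 without the 2 farthest piglets.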
